A study of Mus musculus with 6 samples.

Results

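A set of 10 genes that mark sensory neurons of the gut or encode sensors of mechanical force was followed through single-nucleus RNA profiles of mouse colon. They are 10 of the 31053 genes in the files, chosen by symbol and not by any value: Nmu, Calcb, Calca, Cbln2, Grp, Cck, Sst, Nog, Piezo1 and Piezo2. All 10 were present in every one of the 6 libraries. The libraries came from C57BL/6J mice of the genotype WT in 3 groups: Stress (n = 3 libraries, 7 days of daily restraint), Dexamethasone (n = 1, 7 days of injections of this synthetic glucocorticoid) and Control (n = 2). Nuclei of the colon enteric nervous system were sorted by the DNA dye DAPI and by INTACT positivity, a tag on the nuclear envelope. The allele and promoter behind the tag, the age of the mice and the number of mice per library are not given in the sources used here. The p-values below therefore measure the spread between libraries, which may be technical.

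The enteric nervous system holds its own sensory neurons, the intrinsic primary afferent neurons, which respond to stretch and to chemical signals and drive the motor neurons of the gut wall. In mouse these cells are known for the peptides neuromedin U (Nmu), which also acts on innate lymphoid cells through its receptor, and CGRP, whose beta form is encoded by Calcb and whose alpha form by Calca. Cbln2 is a secreted synapse organiser of the cerebellin family, and Nog (noggin) is a secreted inhibitor of bone morphogenetic proteins. Grp (gastrin-releasing peptide), Cck (cholecystokinin) and Sst (somatostatin) are peptides shared by neurons and endocrine cells of the gut, and Piezo1 and Piezo2 are mechanically gated cation channels.

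The promoters of a sensory peptide with many molecules (Nmu), of the somatostatin gene (Sst) and of a gene with almost none (Calca) are shown for comparison, from 250 bases before to 50 bases after the start in RefSeq, build GRCm38.p6, printed 5′ to 3′ on the strand of the gene. Capitals mark TGACG, the core of the cAMP response element, or the full palindrome TGACGTCA.
Nmu promoter, chr5:76363728-76364027, minus strand: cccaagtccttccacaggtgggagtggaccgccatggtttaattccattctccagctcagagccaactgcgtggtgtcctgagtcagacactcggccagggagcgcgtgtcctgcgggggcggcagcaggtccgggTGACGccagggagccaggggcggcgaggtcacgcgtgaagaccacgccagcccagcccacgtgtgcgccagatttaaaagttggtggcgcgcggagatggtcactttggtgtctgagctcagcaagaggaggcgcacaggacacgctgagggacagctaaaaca
Sst promoter, chr16:23890795-23891094, minus strand: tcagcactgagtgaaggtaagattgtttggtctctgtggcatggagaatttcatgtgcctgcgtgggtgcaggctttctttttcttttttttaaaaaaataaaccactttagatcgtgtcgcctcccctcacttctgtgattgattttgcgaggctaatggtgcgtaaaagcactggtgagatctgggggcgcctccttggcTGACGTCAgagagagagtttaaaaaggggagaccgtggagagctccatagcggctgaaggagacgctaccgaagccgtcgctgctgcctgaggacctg
Calca promoter, chr7:114636308-114636607, minus strand: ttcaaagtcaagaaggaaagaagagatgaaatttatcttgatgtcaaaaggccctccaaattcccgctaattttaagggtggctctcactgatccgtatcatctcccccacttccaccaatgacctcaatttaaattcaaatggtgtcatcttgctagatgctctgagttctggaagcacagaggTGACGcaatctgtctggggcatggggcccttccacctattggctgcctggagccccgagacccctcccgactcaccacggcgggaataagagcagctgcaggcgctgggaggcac
The Sst window holds the full TGACGTCA, in which TGACG matches on both strands and overlaps itself. The Nmu window holds a single TGACG 114 bases before the start, and the Calca window a single one 65 bases before it. Searched on both strands, TGACGTCA lies in 1.79% and TGACG in 20.8% of 32851 promoters of the same length, so that a lone TGACG is common. Calca and Calcb lie 82285 bases apart on chromosome 7, and 12 of the 1260 words of 50 bases in the Calcb transcript (0.952%) also occur in Calca.

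The files hold 11040 barcodes with 58954323 unique molecular identifiers (UMIs, each 1 captured RNA molecule). After filtering, 3430 nuclei were kept, of which 529 were neuron-like and 879 glia-like. Neuron-like nuclei numbered 34, 100 and 104 in the Stress libraries, 70 in the Dexamethasone library and 159 and 62 in the Control libraries. Their depth differed: the median was 2943, 8433 and 8905.5 UMIs in Stress, 1061.5 UMIs in Dexamethasone, and 2318 and 4538 UMIs in Control. In the Dexamethasone library 40 of the 70 neuron-like nuclei fell in a shallow subcluster (number 1, median 684 UMIs) led by Penk and by the goblet cell genes Retnlb and Muc2. Levels are given as CPM, the UMIs of a gene over all UMIs of the class in a library, scaled to 1000000. Summed neuronal marker RNA was 12150 to 13960 CPM in neuron-like nuclei across the 6 libraries, against 2364 to 3609 in glia-like nuclei. Only 3 barcode sequences were shared by kept nuclei of different libraries. Sums over a class cannot tell fewer expressing nuclei from less RNA per nucleus.

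Nmu, Cbln2, Calcb, Grp and Sst were neuronal genes in this tissue, Nog was mostly so, and the channel genes were not. Of the UMIs in kept nuclei, neuron-like nuclei held 96.0% of 1194 for Nmu, 96.8% of 278 for Cbln2 and 94.7% of 225 for Calcb. They held 91.6% of 521 for Grp, 90.2% of 2149 for Sst and 84.8% of 46 for Nog. Neurons thus supplied nearly all molecules of the sensory peptides. The share was 36.2% of 398 for Piezo1 and 4.65% of 2215 for Piezo2. Calca had 5 UMIs and Cck 9 UMIs in all kept nuclei, too few for any comparison. Among neurons, Sst was found in 93 of 529 nuclei (17.6%), Grp in 84 (15.9%), Piezo1 in 79 (14.9%), Nmu in 70 (13.2%), Calcb in 60 (11.3%), Cbln2 in 47 (8.88%), Piezo2 in 41 (7.75%) and Nog in 18 (3.40%). These shares were set against nuclei that should lack the genes, after each nucleus with at least 1000 UMIs was randomly thinned to 1000. Nmu then had a UMI in 7.35% of 449 neuron-like nuclei, against 0.619% of 808 glia-like, 0.766% of 261 smooth muscle-like and 0 of 227 epithelium-like nuclei. For Sst the shares were 8.24% of neuron-like, 1.61% of glia-like, 3.52% of epithelium-like and 4.35% of fibroblast-like nuclei. Sst was thus found at a low level outside neurons more often than Nmu was.

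Nmu, Cbln2 and Nog were concentrated in a single group of neurons, which also held Grp and Calcb. Among neuron-like nuclei 12 subclusters were formed from genes that left out all 10, and their levels in each subcluster are given as a description. Subcluster 8, with 28 nuclei, was led by Mgat4c, Cdh8, Gpr149, Vgll3, Ano2 and Cysltr2, with Nmu and Cbln2 among its 10 genes of highest fold. It carried sensory markers outside the 10 genes and is called sensory-type. Nmu and Grp were each found in 85.7% of its nuclei, Cbln2 in 82.1%, Calcb in 60.7% and Nog in 42.9%. It held 92.3% of the neuronal Nmu UMIs, 87.4% of those of Cbln2, 79.5% of Nog, 60.1% of Calcb and 45.7% of Grp. Calcb and Grp were thus spread over other neurons as well. Of the 5 genes Nmu, Cbln2, Calcb, Grp and Nog, at least 4 were found together in 17 of the 28 nuclei. All 5 were found in 8 nuclei, whose median depth was 38627.5 UMIs.

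Sst and the channels followed other neurons. Subcluster 6 (39 nuclei), with Sst as its leading gene, held 77.5% of the neuronal Sst UMIs, and Sst was found in 69.2% of its nuclei. It also held Calcb in 51.3%, Grp in 46.2% and Piezo1 in 35.9% of nuclei, with Nmu in 10.3%. Of all 60 neurons with Calcb, 40 had Sst and 43 had Grp. Piezo1 was most often found in subcluster 2, in 42.6% of 54 nuclei; that subcluster carried excitatory motor markers, and the plasma cell genes Igha and Jchain were among its leading genes. Piezo2 was most often found in subcluster 3, in 26.5% of 49 nuclei, which carried inhibitory motor markers and was led by Gal (galanin). Subcluster 10, the other sensory-type group (27 nuclei, led by Klhl1 and with Ntng1), had no Nmu, Cbln2 or Nog UMI and a single Calcb UMI, but Piezo2 in 18.5% of its nuclei. It is named from its markers alone: Klhl1 and Ntng1 also led the neuron cluster marked by Vip and Gal, and its values of the 10 genes do not bear the name out. In subcluster 8, Piezo1 was found in 21.4% and Piezo2 in 10.7% of nuclei.

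**Figure D1:**
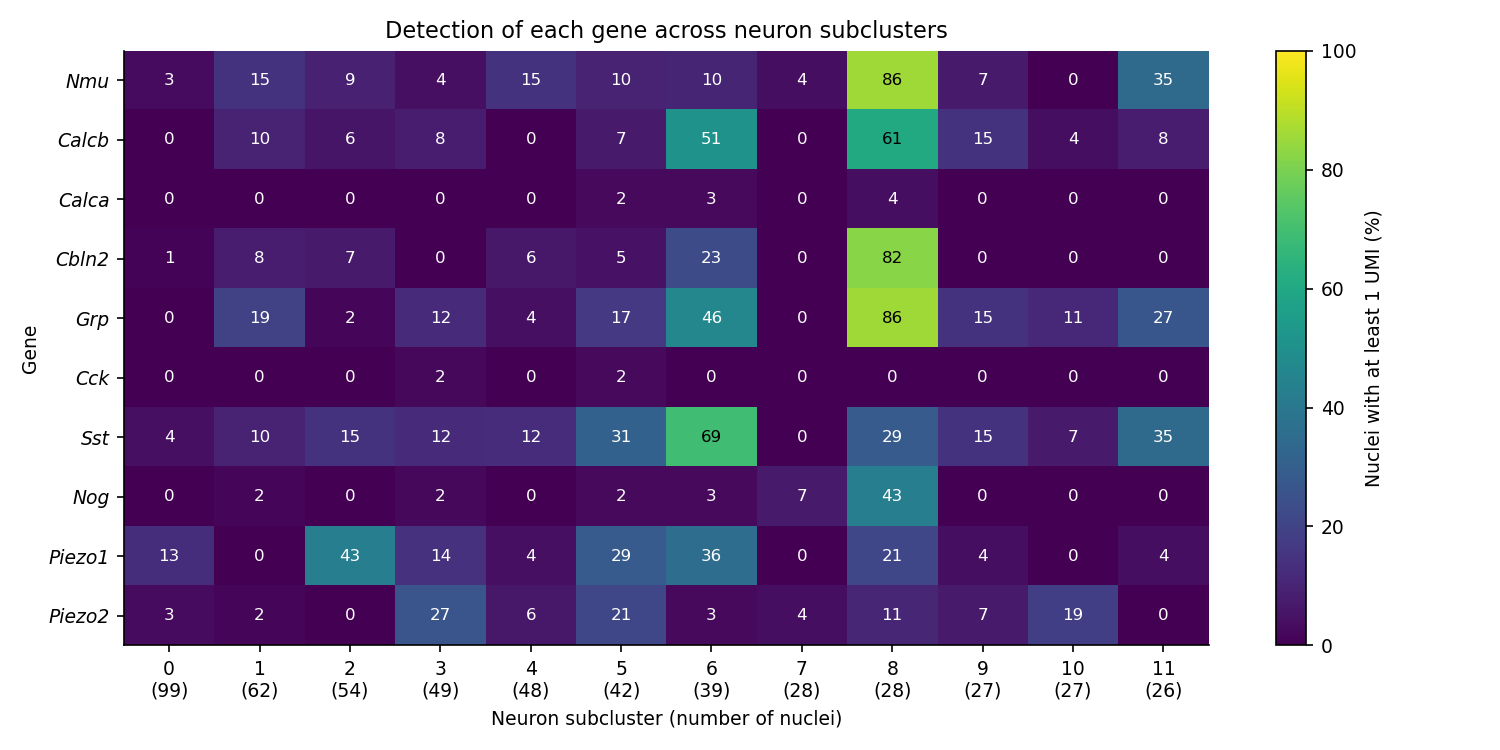
Share of nuclei with at least 1 UMI of each of the 10 genes (rows) in the 12 neuron subclusters (columns, number of nuclei in brackets), libraries summed and not thinned. Nmu, Cbln2, Grp, Calcb and Nog are all high in subcluster 8, Sst is highest in subcluster 6, and Calca and Cck are near 0 throughout.

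Nmu-positive neurons more often held the other sensory peptides, but no difference passed the test, whether or not depth was made equal. Of 70 neurons with Nmu, 39 had Grp (55.7%, against 9.80% of the 459 without Nmu), 29 had Cbln2 (41.4% against 3.92%), 24 had Calcb (34.3% against 7.84%) and 14 had Nog (20% against 0.871%). Sst was found with Nmu in 26 (37.1% against 14.6%). Piezo1 (15.7% against 14.8%) and Piezo2 (4.29% against 8.28%) were not found more often. Within libraries, Nmu-positive nuclei had the higher share in 6 of 6 libraries for Grp, Cbln2 and Calcb, by means of 56.3, 38.6 and 30.6 percentage points (two-sided exact sign-flip permutation test over libraries, p = 0.03125 each, the smallest it allows, adjusted p = 0.0938 over 9 genes). After adjustment over 9 genes, a gene could pass only if most of the 9 reached that smallest p. With every nucleus thinned to 1000 UMIs in 1 random draw, none of the 9 genes passed either, over 27 Nmu-positive nuclei in all. Cbln2 was then found in 5 of the 27, against 2 of 422 others, and Grp in 6 of the 27, against 20 of 422. The mean difference was then 26.8 points for Cbln2 (higher in 3 of 6 libraries, exact p = 0.25), 15.5 points for Grp (4 of 6, exact p = 0.125) and 2.14 points for Calcb (1 of 6, exact p = 1.0). Stress 1 had a single Nmu-positive nucleus in that comparison, and without it the Cbln2 difference was 12.2 points. Another draw from the same 449 nuclei, the one behind the 7.35% given above, held 33 with Nmu. With doublets kept, in a further draw, the differences were 36.9, 20.75 and 13.2 points for Cbln2, Grp and Calcb. They were higher in 4, 5 and 4 of 6 libraries, so the thinned values moved with the draw and the nuclei entered. Piezo2 was found in 0 of the 27 thinned Nmu-positive nuclei; not thinned, its share was lower in those nuclei in 5 of 6 libraries and higher in Stress 2 (17.6% against 8.43%; exact p = 0.1562, adjusted p = 0.2344).

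Under stress, Cbln2 was the only one of the 10 genes with no overlap between groups in neuron-like nuclei. Cbln2 stood at 20.2, 108 and 74.7 CPM in Stress 1, 2 and 3, at 19.8 in Dexamethasone, and at 11.97 and 16.9 in Control 1 and 2. Every Stress library was above every Control library, the lowest of them (Stress 1) narrowly and on 5 UMIs. The gene lies at chr18:86711110-86718283 on the plus strand (GRCm38, GENCODE M21), and no other gene in the files overlaps it. The means were 67.5 ± 44.2 in Stress and 14.4 ± 3.46 in Control (SD, n = 3 and 2). Among all 8067 genes tested, 17.4% were higher in every Stress library than in every Control library. In edgeR's quasi-likelihood test Cbln2 differed by 2.41 ± 0.55 on the log2 scale (SE) with an unadjusted p of 0.00124 and a Benjamini-Hochberg adjusted p of 0.211, so it did not pass over all genes. That fit called 0 of 8067 genes (0%), with 812 (10.1%) at an unadjusted p under 0.05, and DESeq2 called 14, none of them among the 10. Counting error alone gave a ratio of 6.18 for the 243 Stress UMIs over the 14 Control UMIs (95% interval 3.61 to 11.5). Cbln2 entered the edgeR test through the Stress libraries. Its 8 and 6 Control UMIs would not alone have met the filter on low counts.

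The other sensory genes varied between libraries of a group as much as between groups. Nmu stood at 105, 409 and 205 CPM in Stress, at 221 in Dexamethasone, and at 82.3 and 379 in Control. The 2 Control libraries thus spanned nearly the whole range, and the log2 difference between Stress and Control was 0.16 ± 0.58 (adjusted p = 0.955). Nmu was lowest in Stress 1 and Control 1, and highest in Stress 2 and Control 2. With replicate number as a block in edgeR, the Nmu difference was 0.16 ± 0.24 (adjusted p = 0.908). Grp stood at 20.2, 112 and 147 in Stress, at 44.5 in Dexamethasone, and at 83.8 and 129 in Control. Its groups overlapped, with Stress 1 the lowest (-0.01 ± 0.44, adjusted p = 0.999). Calcb stood at 4.03, 67.0 and 38.5 in Stress, at 29.7 in Dexamethasone, and at 46.4 and 73.0 in Control. The groups overlapped, and the Stress 1 value rests on a single UMI (-0.43 ± 0.50, adjusted p = 0.810). Sst stood at 8.07, 380.5 and 773 in Stress, at 150 in Dexamethasone, and at 332 and 227.5 in Control. Its Stress libraries held both the lowest and the highest value (0.47 ± 0.75, adjusted p = 0.872). In Stress 3, 472 of the 1065 Sst UMIs lay in 1 nucleus.

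Nog, a low-count gene, had 0, 10 and 22 UMIs in the Stress neurons, 5 in Dexamethasone, and 1 and 1 in Control, or 0, 7.98 and 16.0, 8.24, and 1.496 and 2.81 CPM. The groups overlapped through Stress 1, and the summed ratio of Stress over Control was 5.69, with a counting interval of 1.45 to 49.0; Nog did not reach the filter on low counts in this comparison. Piezo1 stood at 12.1, 27.1 and 43.5 CPM in Stress, at 23.1 in Dexamethasone, and at 34.4 and 28.1 in Control (-0.07 ± 0.40, adjusted p = 0.973). Piezo2 stood at 56.5, 22.3 and 21.04 in Stress, at 9.89 in Dexamethasone, and at 28.4 and 19.7 in Control (0.02 ± 0.49, adjusted p = 0.997). The Stress and Control libraries of both channel genes overlapped. Calca had 0, 2 and 1 UMIs in Stress neurons and 0 in the Dexamethasone and both Control libraries, where 0 UMIs allow up to 4.95 and 2.93 CPM (3 counts over the group). Cck had 1 UMI in Stress, 1 in Dexamethasone and 0 in Control.

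**Figure D2:**
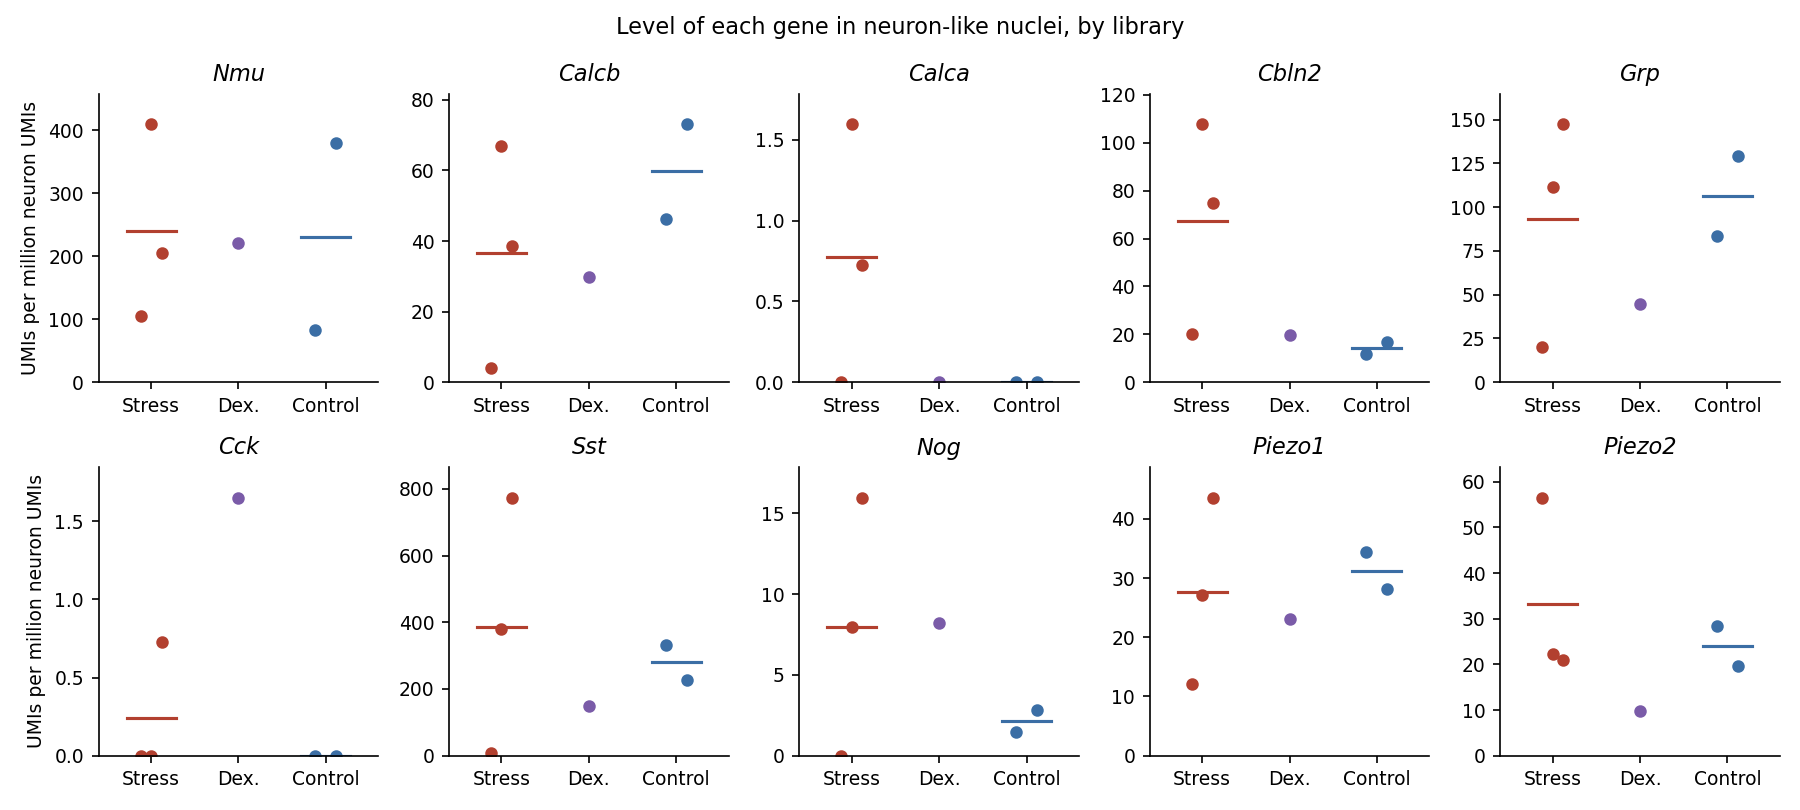
Level in neuron-like nuclei (CPM, of all neuron UMIs of a library) of each of the 10 genes in the Stress (3 libraries), Dexamethasone (1) and Control (2) libraries; points are libraries and lines are group means. The Cbln2 panel is the one in which all 3 Stress points (20.2 to 108) lie above both Control points (11.97 and 16.9); each panel has its own linear axis from 0.

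Neuron makeup was recorded beside these levels. Of 17 marker lists, 5 did not overlap between the Stress and Control neuron-like nuclei. Excitatory motor markers summed to 2201 to 3090 CPM in Stress and 1587 to 1910 in Control, and inhibitory motor markers to 3667 to 4359 and 3045 to 3620. Epithelial markers summed to 161 to 372 in Stress and 450 to 594 in Control, lymphatic endothelial markers to 12.3 to 16.1 and 4.49 to 5.62, and pericyte markers to 18.1 to 28.2 and 7.48 to 11.2. The sensory-type marker list without the 10 genes overlapped, at 1085 to 2244 in Stress and 1974 to 2186 in Control. The part of these differences in the values of the 10 genes was not tested. Sensory-type nuclei, here subclusters 8 and 10 together, made up 11.8%, 17.0% and 8.65% of neuron-like nuclei in Stress. Their share was 4.29% in Dexamethasone (3 of 70, exact Clopper-Pearson 95% interval 0.893 to 12.02%), and 8.18% and 14.5% in Control. The groups overlapped, and the mean difference between Stress and Control was 1.13 percentage points (two-sided exact permutation test, p = 0.8). With 10 splits no p below 0.1 is possible. The values of the 10 genes did not bear out the name of subcluster 10. Subcluster 8 alone held 1 of 34, 11 of 100 and 5 of 104 neuron-like nuclei in Stress. It held 2 of 70 in Dexamethasone, and 5 of 159 and 4 of 62 in Control.

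In sensory-type nuclei Cbln2 was higher under stress and was called, in a test it entered through the Stress libraries alone. Subclusters 8 and 10 together were compared in the 4 Stress and Control libraries with at least 5 such nuclei. Cbln2 stood at 460 and 483 CPM in Stress 2 and 3, and at 69.0 and 44.1 in Control 1 and 2; the libraries not entered had 159 in Stress 1, with 4 nuclei, and 50.8 in Dexamethasone, with 3. Both Stress libraries were far above both Control libraries. Cbln2 was higher by 3.10 ± 0.45 on the log2 scale (SE), an adjusted p of 0.0152 in edgeR and 0.00437 in DESeq2. With 130 and 89 UMIs in Stress and 5 and 3 in Control, Cbln2 reached the filter on low counts through the Stress libraries alone, and a gene that does so is likely to differ. Of all 2424 genes tested, 52 (2.15%) were called, 49 (2.02%) in the direction of Stress. Of the 10 genes, 4 were tested here and Cbln2 was the 1 called. Without Control 2, the call was lost (adjusted p = 0.197), whereas it held without each of the other 3 libraries, and with Stress 1 added the difference was 2.90 ± 0.59 (adjusted p = 0.0441). With replicate number as a block in the fit of all libraries, 0 of 1468 genes were called, so the Cbln2 call was lost there too. In the fit of the 4 libraries, Nmu (0.50 ± 0.48, adjusted p = 0.651), Grp (0.28 ± 0.55, adjusted p = 0.837) and Calcb (0.10 ± 0.61, adjusted p = 0.949) did not pass. Over sensory-type nuclei of all 6 libraries the sensory-type marker list without the 10 genes was lower in Stress, at 5145 to 7625 CPM against 8807 to 11710 in Control, and fibroblast markers were at 0 to 21.2 against 29.4 to 152. Their part in the Cbln2 difference was not tested.

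Subcluster 8, where most Cbln2 lay, rested on few nuclei per library: 1, 11 and 5 in Stress, 2 in Dexamethasone, and 5 and 4 in Control. Its Cbln2 counts were 5, 130 and 89 UMIs in Stress, 3 in Dexamethasone, and 5 and 3 in Control. As CPM these were 732, 528 and 548.5, against 61.4 in Dexamethasone and 97.7 and 60.2 in Control. The 3 Stress libraries were far above the Dexamethasone and both Control libraries. In all 5 Stress and Control libraries the log2 difference was 2.87 ± 0.47 (SE, edgeR adjusted p = 0.0365; DESeq2 2.82, adjusted p = 0.0279), with 30 of 925 genes called (3.24%) and 28 (3.03%) higher in Stress. Here too Cbln2 reached the filter on low counts through the Stress libraries alone. It did not pass when any 1 library was left out (2.41 to 3.12, adjusted p = 0.118 to 0.305). Among the genes tested, 19.1% were higher in every Stress than in every Control library. In the same nuclei Nmu stood at 3515, 2043 and 1590 CPM in Stress, at 2271 in Dexamethasone, and at 782 and 2450 in Control, and its groups overlapped.

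The Cbln2 molecules were uneven between nuclei. At least 5 Cbln2 UMIs were found in 1, 7 and 3 nuclei of subcluster 8 in Stress 1, 2 and 3, and in 0 nuclei of the Dexamethasone and Control libraries. A single nucleus held 64 of the 89 UMIs (71.9%) in Stress 3 and 37 of 130 (28.5%) in Stress 2. Without the nucleus of most Cbln2 in each library the levels were 504 and 213 CPM in Stress 2 and 3, 62.0 in Dexamethasone, and 65.8 and 71.9 in Control 1 and 2; Stress 1 had no other nucleus. Both Stress libraries remained above the rest. Nuclei of subcluster 8 were deeper in Stress 2 and 3, with medians of 16773 and 37770 UMIs, than in Control, with 5550 and 10344, while the 2 Dexamethasone nuclei had a median of 24438. The part of depth in these counts was not tested beyond scaling to the total.

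Set against Nmu of the same nuclei, Cbln2 was higher in every Stress library than in every Control library. These ratios reuse the Cbln2 UMIs given above and are no separate evidence. For each 100 Nmu UMIs, subcluster 8 held 20.8, 25.8 and 34.5 Cbln2 UMIs in Stress, 2.70 in Dexamethasone, and 12.5 and 2.46 in Control. The means were 27.1 ± 6.91 in Stress and 7.48 ± 7.10 in Control (SD, n = 3 and 2; two-sided exact permutation test, p = 0.1, the smallest that 10 splits allow). Over all neuron-like nuclei the values were 19.2, 26.3 and 36.4 in Stress, 8.96 in Dexamethasone, and 14.5 and 4.44 in Control (exact p = 0.2). In neuron-placed nuclei of 5 to 20% mitochondrial UMIs, described next, they were 35.9, 32.1 and 23.6 in Stress, 29.2 in Dexamethasone, and 16.9 and 16.8 in Control (exact p = 0.2). None of 15 such ratios, 5 genes in 3 sets of nuclei, passed after adjustment (adjusted p = 0.5 for Cbln2 in each set). Calcb per 100 Nmu UMIs in neuron-like nuclei was 3.85, 16.4 and 18.7 in Stress, 13.4 in Dexamethasone, and 56.4 and 19.3 in Control. It was lower in every Stress library (exact permutation p = 0.1, adjusted p = 0.5), in Stress 3 narrowly and in Stress 1 on 1 Calcb UMI. In subcluster 8 the Calcb groups overlapped. They also overlapped in the nuclei of 5 to 20% mitochondrial UMIs, where the mean was higher in Stress (28.2) than in Control (19.7).

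**Figure D3:**
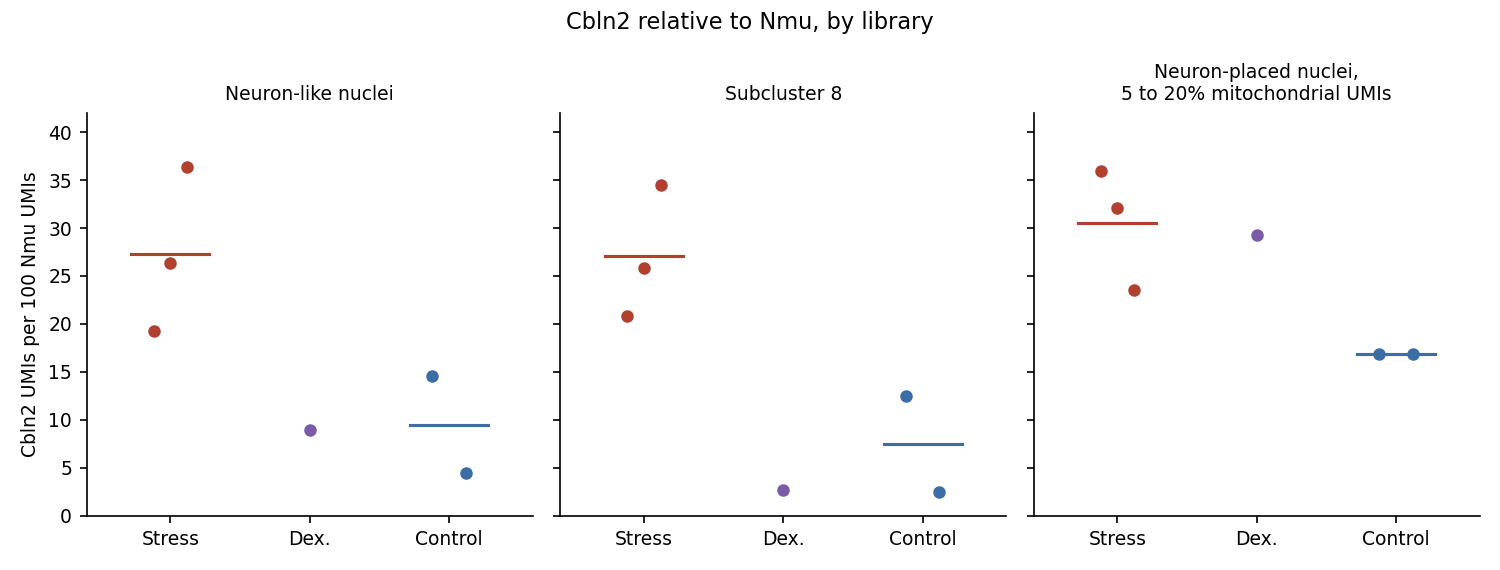
Cbln2 UMIs per 100 Nmu UMIs in the Stress, Dexamethasone and Control libraries, in neuron-like nuclei, in subcluster 8 and in neuron-placed nuclei with 5 to 20% mitochondrial UMIs; points are libraries and lines are group means. In each panel the 3 Stress points lie above both Control points, while the Dexamethasone point is low in the first and second panels and within the Stress range in the last.

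A second, separate set of neurons was available among the nuclei left out for their mitochondrial RNA. Nuclei with over 5% and at most 20% mitochondrial UMIs were placed by their nearest neighbours among the kept nuclei, which gave 617 neuron-placed nuclei: 40, 134 and 130 in Stress, 82 in Dexamethasone, and 118 and 113 in Control. Their medians were 10336, 16187 and 20553.5 UMIs in Stress, 3995.5 in Dexamethasone, and 8405.5 and 10231 in Control. They come from the same libraries and are no new replicates, and they were examined after the values above were seen. Of 96 such nuclei with Nmu, 66 also had Calcb (68.8%, against 7.29% of the 521 without Nmu), 66 Grp (68.8% against 10.6%), 59 Cbln2 (61.5% against 7.10%) and 41 Nog (42.7% against 0.384%). Of the 43 nuclei with Nog, 41 had Nmu. Thinned to 1000 UMIs, Grp was found more often with Nmu in 6 of 6 libraries by a mean of 41.1 points (exact p = 0.03125, adjusted p = 0.141), and Calcb in 5 of 6 by 20.8 points (exact p = 0.0625).

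In these nuclei 8 of the 10 genes passed the filter on low counts. Of these, 5 (Nmu, Cbln2, Grp, Sst and Nog) were higher in every Stress library than in every Control library, against 25.1% of all genes tested. Nog, at 3.51 and 6.94 CPM in Control, reached that filter through the Stress libraries alone. A gene that does so is likely to differ. Nmu, Cbln2, Grp and Nog often lay in the same nuclei, so they are not separate cases. Sst, the peptide that dampens secretion and motility, stood at 275, 395 and 509 CPM in Stress, at 700.2 in Dexamethasone, and at 69.3 and 97.95 in Control. The Stress and Dexamethasone libraries were all above both Control libraries. The difference between Stress and Control was 2.06 ± 0.25 on the log2 scale (SE, edgeR adjusted p = 0.0551) and did not pass; DESeq2 called it. Cbln2 stood at 119, 85.8 and 65.0 in Stress, at 83.6 in Dexamethasone, and at 30.7 and 37.0 in Control, again with no overlap (1.18 ± 0.30, adjusted p = 0.219). Without the nucleus of most Cbln2 in each library it stood at 71.2, 69.0 and 59.0 in Stress, 67.6 in Dexamethasone, and 8.19 and 27.8 in Control.

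Grp stood at 102, 195 and 114.5 CPM in Stress, at 179.6 in Dexamethasone, and at 28.1 and 81.8 in Control (1.15 ± 0.38, adjusted p = 0.287), the Stress libraries all being higher. Nmu stood at 331, 267 and 276 in Stress, at 286 in Dexamethasone, and at 182 and 219.8 in Control (0.36 ± 0.18, adjusted p = 0.455). The Nmu groups were apart but close. Nog stood at 14.3, 15.4 and 8.99 in Stress, at 11.9 in Dexamethasone, and at 3.51 and 6.94 in Control (1.04 ± 0.49, adjusted p = 0.436). Cck, under the filter, had 1, 7 and 11 UMIs in Stress, 3 in Dexamethasone, and 1 and 0 in Control. The fit called 0 of 10145 genes (0%) between Stress and Control, with 1202 (11.8%) at an unadjusted p under 0.05 and 49 called by DESeq2. Calcb (0.77 ± 0.40, adjusted p = 0.472), Piezo1 (-0.03 ± 0.34, adjusted p = 0.985) and Piezo2 (-0.05 ± 0.49, adjusted p = 0.983) overlapped between the groups. The sensory-type marker list without the 10 genes was also higher in Stress in these nuclei, at 1671 to 2052 CPM against 1377 to 1561 in Control, and pericyte markers at 10.0 to 15.9 against 6.17 to 7.02; their part was not tested.

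The share of neuron-like nuclei with Cbln2, thinned to 1000 UMIs, was 3.57%, 2.06% and 3.12% in Stress, 2.86% in Dexamethasone (1 of 35 nuclei), and 0 of 136 and 0 of 57 nuclei in Control, for which the exact 95% interval reaches 2.68% and 6.27%. These are 1, 2 and 3 positive nuclei in the Stress libraries. The mean difference of 2.92 percentage points had an exact permutation p of 0.1, the smallest possible, and an adjusted p of 0.75 over the 10 genes. Not thinned, the shares overlapped, with means of 9.48% in Stress and 6.73% in Control. None of the 10 genes passed in either form.

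The Dexamethasone library was compared with the same 2 Control libraries in a fit of all 6 libraries, in which the spread of the replicated groups stands in for that of the lone Dexamethasone library. In neuron-like nuclei 0 of 9285 genes were called (0%), with 963 (10.4%) at an unadjusted p under 0.05 and 13 called by DESeq2. Of the 10 genes 8 were tested, and none passed. The log2 differences were 0.43 ± 0.84 for Cbln2, -0.07 ± 0.74 for Nmu, -1.04 ± 0.72 for Calcb, -1.30 ± 0.65 for Grp, -1.0 ± 1.03 for Sst, 1.90 ± 1.49 for Nog, -0.55 ± 0.56 for Piezo1 and -1.41 ± 0.77 for Piezo2 (SE, adjusted p = 0.516 to 0.986). For Cbln2 the side-by-side values were 2.41 under stress and 0.43 under dexamethasone; the difference between the treatments was not tested, and both share the Control libraries. Smooth muscle markers summed to 828 CPM in these neuron-like nuclei under dexamethasone and to 219 to 257 in Control, and the counting software version also differed with this library, so that treatment, library and version cannot be told apart.

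In the nuclei with 5 to 20% mitochondrial UMIs, 8 of the 10 genes were tested under dexamethasone, and Sst was the 1 called. There 154 of 11928 genes were called (1.29%), 141 of them higher (1.18%) and 13 lower (0.109%). Sst differed by 2.82 ± 0.29 on the log2 scale (SE, edgeR adjusted p = 0.00208), with 700.2 CPM in Dexamethasone against 69.3 and 97.95 in Control. A single Dexamethasone nucleus held 932 of the 1298 Sst UMIs (71.8%). Without the nucleus of most Sst in each library the levels were 205 in Dexamethasone and 45.3 and 60.3 in Control. The call was lost without Control 2 (adjusted p = 0.0579), and in neuron-like nuclei of at most 5% mitochondrial UMIs the difference had the opposite sign (-1.0 ± 1.03). Grp (1.45 ± 0.46, adjusted p = 0.155), Cbln2 (1.05 ± 0.36, adjusted p = 0.195), Nog (0.91 ± 0.60, adjusted p = 0.478) and Nmu (0.26 ± 0.24, adjusted p = 0.614) did not pass. Smooth muscle markers summed to 1513 CPM in Dexamethasone and 237 to 238 in Control in these nuclei, and glial markers to 743 and 154 to 282; their part was not tested.

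**Figure D4:**
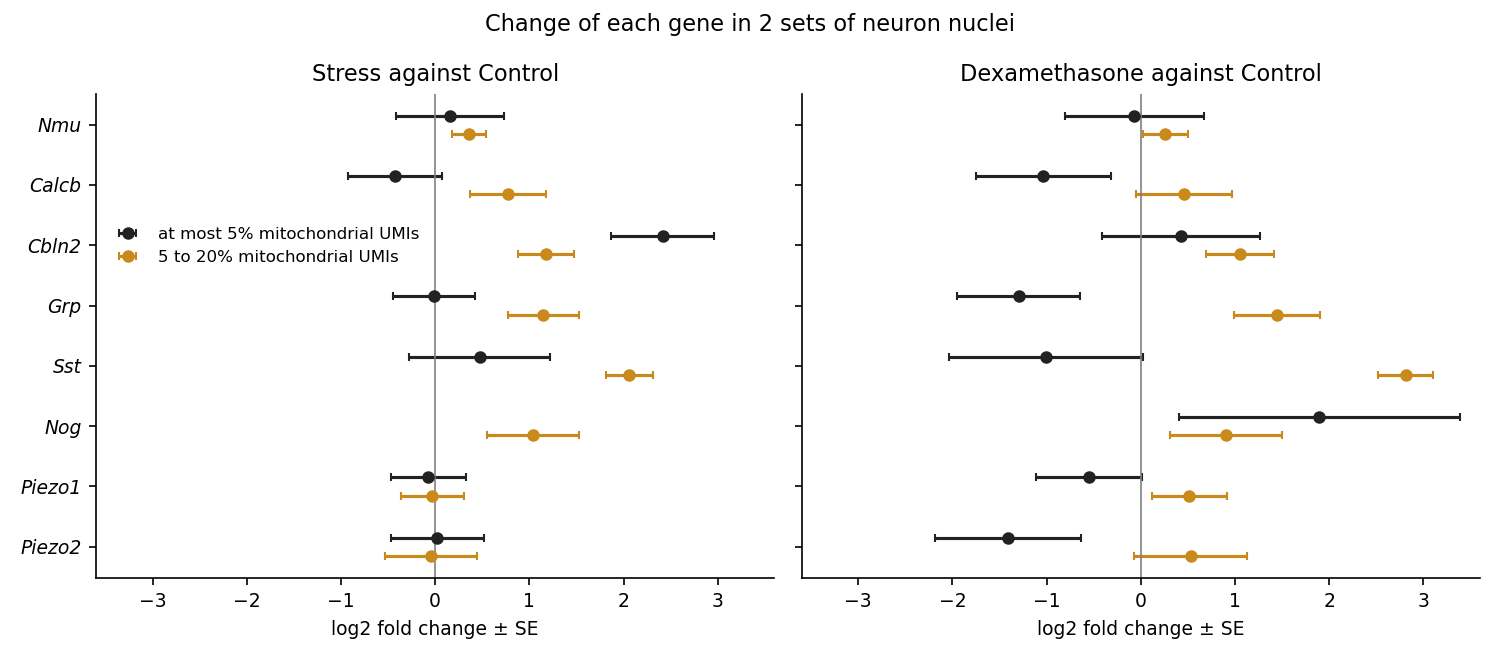
Log2 fold change with its SE for each gene that passed the filter on low counts, Stress against Control (left) and Dexamethasone against Control (right), in neuron-like nuclei of at most 5% mitochondrial UMIs (black) and in neuron-placed nuclei of 5 to 20% (orange). Cbln2 is above 0 in both sets under stress (2.41 and 1.18). Under dexamethasone every gene drawn other than Cbln2 and Nog lies on opposite sides of 0 in the 2 sets.

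Piezo2 was above all a gene of glia, lymphatic vessels and enteroendocrine cells in this tissue. It had 1038 UMIs in glia-like nuclei (found in 51.6% of 879), 567 in lymphatic endothelium-like nuclei (84.2% of 158) and 253 in enteroendocrine-like nuclei (43.5% of 23), against 103 in neuron-like nuclei (7.75% of 529). As CPM of the class these were 3593 in enteroendocrine-like, 1683 in lymphatic, 320 in glia-like and 22.8 in neuron-like nuclei. The enteroendocrine-like nuclei were led by Tph1, the enzyme of serotonin synthesis, and their Piezo2 lay in 10 of the 23 nuclei. Piezo1 was highest in endothelium, at 202 CPM in lymphatic and 190 in vascular endothelium-like nuclei, against 31.9 in neuron-like and 3.08 in glia-like nuclei. Piezo1 overlaps Gm20388 and Ctu2 on the opposite strand, and whether counting used strand is not given in the sources used here.

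**Figure D5:**
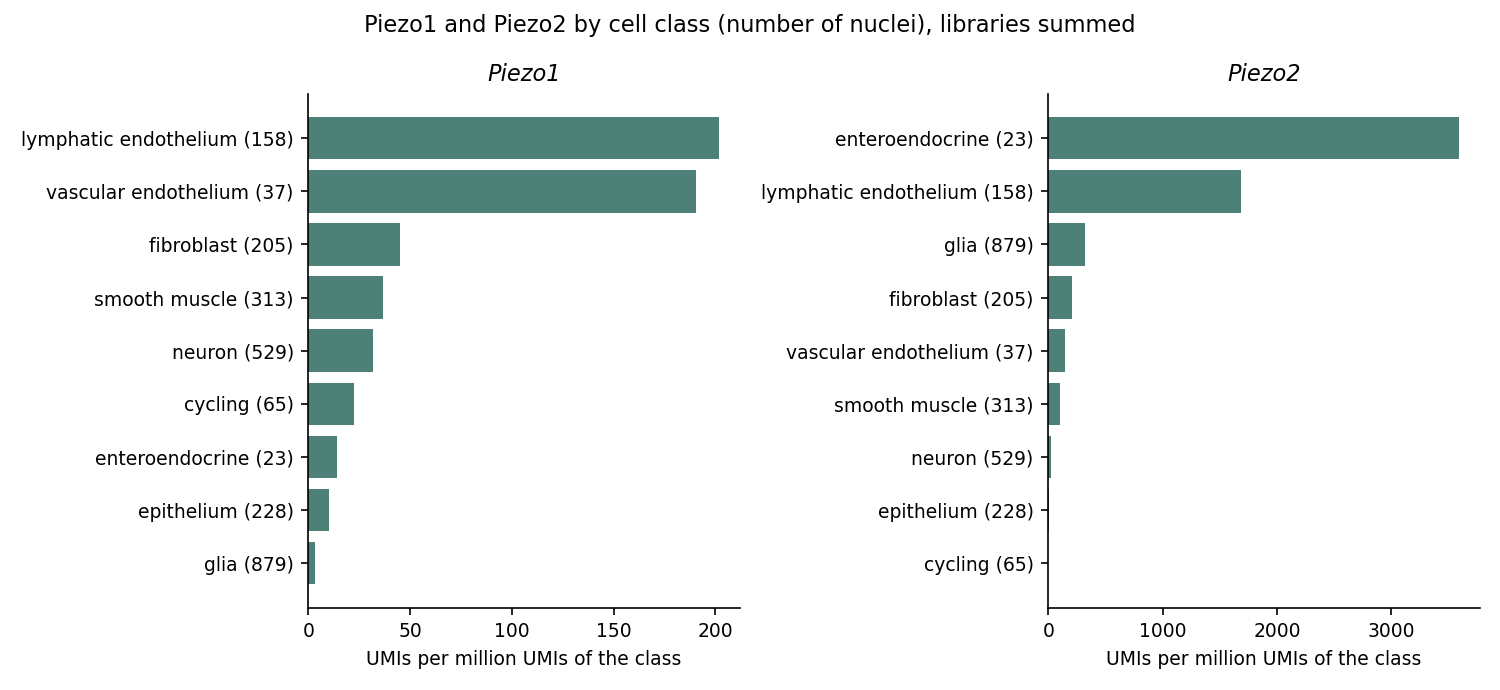
Levels of Piezo1 and Piezo2 (CPM) in each named cell class (number of nuclei in brackets), libraries summed, on linear axes from 0; unnamed clusters are not drawn. Piezo1 is highest in lymphatic (202) and vascular (190) endothelium-like nuclei, and Piezo2 in enteroendocrine-like (3593) and lymphatic endothelium-like (1683) nuclei, with neurons low for both.

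Piezo2 was lower in glia-like nuclei of every Stress library, without passing the test. It stood at 322, 197 and 312 CPM in Stress, at 287 in Dexamethasone, and at 481 and 347 in Control. The Stress and Control libraries did not overlap, as for 12.1% of all genes tested in glia that were lower in Stress. The log2 difference was -0.62 ± 0.24 (SE, edgeR adjusted p = 0.255) in a fit that called 133 of 6544 genes (2.03%), 35 of them lower (0.535%). Under dexamethasone it was -0.44 ± 0.33 (adjusted p = 0.519), where 467 of 7698 genes were called (6.07%). Glial markers summed to 5389 to 6564 CPM in the Stress and 3872 to 4809 in the Control glia-like nuclei, neuronal markers to 2978 to 3609 and 2364 to 2651, and pericyte markers to 42.4 to 48.3 and 21.4 to 25.1. Their part in the Piezo2 value was not tested.

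In lymphatic endothelium-like nuclei Piezo2 stood at 2091, 2027 and 1379 CPM in Stress, at 1771 in Dexamethasone, and at 1740 and 1214 in Control, with overlap (0.21 ± 0.33, adjusted p = 0.845; under dexamethasone 0.29 ± 0.43, adjusted p = 0.897). Piezo1 stood at 183, 219 and 113 in Stress, at 217 in Dexamethasone, and at 398 and 315 in Control. All Stress values of Piezo1 were below both Control values, as for 7.25% of the genes tested. They rest on 5, 11 and 11 UMIs in Stress against 8 and 7 in Control, a summed ratio of 0.436 with a counting interval of 0.224 to 0.882, and Piezo1 did not reach the filter on low counts in this comparison. The Stress fit in this class called 0 of 524 genes (0%; 44, or 8.4%, at an unadjusted p under 0.05, and 0 by DESeq2), and the Dexamethasone fit 4 of 1422 (0.281%).

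Around these genes, 6 lists of pathway genes were followed: peptide receptors, genes of peptide processing and dense core vesicles, partners of the cerebellins, the BMP pathway around noggin, mechanosensitive and other sensory channels, and other sensory neuron genes. In neuron-like nuclei none of their tested members passed in either comparison, in fits that called 0 of 8067 genes under stress and 0 of 9285 under dexamethasone. The lack of calls is thus nothing particular to the lists. The 15 dense core vesicle genes had a median log2 difference of 0.32 under stress, against 0.00 over all genes, with 11 above 0. Of the 15, 5 had an unadjusted edgeR p under 0.05, against 10.1% of all genes tested. Motor neuron markers were higher and epithelial markers lower in the same Stress nuclei, as given above, and their part was not tested. In sensory-type nuclei 2 of the 11 tested dense core vesicle genes were higher in Stress, where 49 of 2424 genes (2.02%) were higher: Scg2 (secretogranin II, 2.44 ± 0.45, edgeR adjusted p = 0.0263) and Pcsk1n (the inhibitor of the prohormone convertase PC1, 1.86 ± 0.41, adjusted p = 0.0414). Of 5 tested channels 1 was higher, Htr3a (the serotonin receptor channel subunit, 2.02 ± 0.44, adjusted p = 0.0414). It is also on the list of other sensory neuron genes, of which 2 of 8 were higher, the other being Nefl (neurofilament light chain, 2.12 ± 0.48, adjusted p = 0.0451). All of these calls were lost without Control 2, where 0 of 4395 genes passed (658 at an unadjusted p under 0.05), and with the replicate block in all libraries (0 of 1468). The medians of these lists were 0.34, 0.36 and 0.27, against -0.03 over all genes tested. The sums tested held 282488 and 184187 UMIs in Stress 2 and 3, and 72496 and 68011 in Control 1 and 2. Whether the genes called here reached the filter on low counts through the Stress libraries alone is not given. A gene that does so is likely to differ. The 5 tested cerebellin partners, the 5 BMP pathway genes and the 1 peptide receptor did not pass. In nuclei of 5 to 20% mitochondrial UMIs under dexamethasone, Htr3a was higher (1.51 ± 0.24, adjusted p = 0.0164), where 1.18% of all genes were; the smooth muscle and glial markers given above were higher in the same nuclei, and their part was not tested.

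In glia-like nuclei the lists gave few calls. Under stress 1 of 8 dense core vesicle genes (Cadps) and 1 of 2 other sensory neuron genes (Avil) were higher, against 1.5% of all genes tested, and no other list member passed. Under dexamethasone Cadps, Avil and Smad1 were higher, where 5.43% of all genes tested were, and Acvr2a and Mdfic lower, where 0.637% were. The number of list members tested is not given for dexamethasone, so these calls cannot be set against those shares. Neuronal markers were higher in the Stress glia-like nuclei, as given above, and their part in the Cadps call was not tested.

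The genes whose pattern was most like each of 3 members were read across 18 units of subcluster and library with at least 10 nuclei, by Pearson r of log2(CPM + 10) among 6253 genes. This is a description, since the units share libraries and only 1 of them was of subcluster 8. For Nmu they were Gpr149 (r = 0.905), Myl1, Galr1, Mgat4c and Tbx2; for Calcb Lhfpl2 (r = 0.921), Cdh8, Calb2, Sst and Fxyd7; and for Cbln2 Vgll3 (r = 0.852), Rgs4, Nmu (r = 0.798) and Efr3a.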

How the data were processed

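Single-nucleus libraries (10x Genomics) of mouse colon were deposited by the authors as 1 matrix of raw UMI counts per library, with no normalization. The version of Cell Ranger is 5.0.1 in the header of the Dexamethasone matrix and 4.0.0 in those of the other matrices, per the file headers; the submitters' processing notes name versions 5 and 5.0 and the build mm10. Whether intron or antisense reads were counted is not given in the sources used here. The software version changes together with the Dexamethasone library and cannot be told apart from it.

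Barcodes needed 300 genes or more and no more than 5% mitochondrial UMIs, and 31 of 3461 (0.896%) were removed as doublets; the libraries kept 378 to 765 nuclei each. After log-normalization to 10000 counts a nucleus, 2000 variable genes, 30 components and 15 neighbours gave 23 Leiden clusters at resolution 1.0 (scanpy 1.11.5, leidenalg 0.10.2, Python 3.11.15). The 10 genes were left out of the variable genes. Clusters were named from 17 marker lists and neurons were subclustered in the same way.

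UMIs were summed per library and class and compared with edgeR 4.0.16 (R 4.3.3; quasi-likelihood test, TMM, filterByExpr, Benjamini-Hochberg adjustment over all genes tested, threshold 0.05), with DESeq2 1.42.0 as the alternative. These adjusted p-values come from models fitted across all genes. The fits were tested on simulated data. No setting or outcome of that test is given here, so it does not speak for the calls. Shares, ratios and co-detection were compared by exact permutation over libraries, and intervals cover counting error only. CPM, computed from the deposited counts, are relative to the class total in a library.

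All 10 genes are described whatever their values. Members of 6 lists holding 98 genes are named where they passed, and the 5 genes most like Nmu, Calcb and Cbln2 by Pearson r; a few of these genes are not reported here. The 10 genes and all lists were chosen with earlier results of these data known. The nuclei of 5 to 20% mitochondrial UMIs, subcluster 8 alone, glia, lymphatic endothelium and the values without the nucleus of most UMIs were added after seeing the data. The ratios to Nmu were not among the tests planned beforehand. Of the gene IDs, 30934 were found in GENCODE M21, and 35 symbols belong to more than 1 ID. The labels state no pairing of libraries, so replicate number was used as a block only in an alternative fit. Deviations of same-numbered Stress and Control libraries correlated at 0.0139 and 0.0654. Such correlations cannot decide whether single genes follow replicate number.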

Additional observations from a re-analysis of the deposited data

How the results depend on the processing

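Cbln2 kept its direction in Stress against Control in neuron-like nuclei under every alternative that gave a value (1.18 to 2.69 on the log2 scale; under the filter of at least 500 genes and at most 2% mitochondrial UMIs it was not tested), and passed the test there only with no filter on low counts, while several other members, whose differences were near 0, changed sign. For Stress in neuron-like nuclei the count of genes called, 0 in the report, was 14 with DESeq2, 145 with no filter on low counts (1 member, Cbln2), 11 with nuclei of up to 20% mitochondrial UMIs, 47 with the replicate block, and 0 to 1 without 1 library. Signs turned for Nmu (-0.00608 with DESeq2, -1.11 with that strict filter), Piezo1 (0.00749 without TMM, 0.20 with the strict filter), Piezo2 (-0.22 with the strict filter, -0.15 with doublets kept, -0.0294 up to 20%, -0.0467 at 5 to 20% alone), Grp (0.0619 without TMM, 0.00686 with doublets kept, 0.71 up to 20%, 0.27 without subclusters 1, 5 and 11, 1.15 at 5 to 20%), Calcb (0.41 up to 20%, 0.77 at 5 to 20%) and Sst (-0.85 with the replicate block). Without 1 library the ranges were -0.64 to 1.56 for Nmu, -0.38 to 0.28 for Grp, -0.48 to 0.11 for Piezo1, -0.30 to 0.35 for Piezo2, -0.36 to 0.92 for Sst and 1.97 to 2.63 for Cbln2.

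For Dexamethasone in neuron-like nuclei the count, 0 in the report, was 13 with DESeq2, 22 without TMM, 210 with no filter (2 members, Grp and Sst), 4 with thinned sums, 5 with the strict filter, 171 up to 20%, 2 at resolution 1.5, 1 without subclusters 1, 5 and 11, 154 at 5 to 20% (1 member, Sst), 84 with the replicate block (1 member, Nmu, 1.26) and 0 to 46 without 1 library. Signs turned for Nmu (0.0276 without TMM, 0.15 thinned, 0.23 up to 20%, 0.74 without those subclusters, 0.26 at 5 to 20%; -0.87 to 1.34 without 1 library), Cbln2 (-0.18 strict, -0.69 at resolution 1.5, -0.11 without those subclusters), Calcb (0.11 and 0.46 up to 20% and at 5 to 20%), Piezo1 (0.0812 and 0.51; 0.28 without those subclusters), Sst (1.74 and 2.82), Piezo2 (0.36 and 0.53) and Grp (0.86 and 1.45).

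In sensory-type nuclei the count of 52 was 30 with DESeq2, 16 in all libraries, 30 in subcluster 8 alone, 0 with the replicate block in all libraries (0 members; Cbln2 2.50, adjusted p = 0.308) and 0 to 161 without 1 library (0 to 2 members; Sst passed without Stress 3 and without Control 1). Calcb was -0.0858, -0.23 and -0.61 in all libraries, in subcluster 8 and with the block, and -0.78 to 2.31 without 1 library, Grp -0.50 to 1.89 and Nmu -0.14 to 1.58. In subcluster 8 alone DESeq2 called 14 genes, and 0 to 1 were called without 1 library (Nmu -0.37 to 1.26, Grp -0.75 to 1.72, Calcb -1.18 to 1.82). At 5 to 20% mitochondrial UMIs, Stress gave 49 genes with DESeq2 (1 member, Sst), 11 without TMM (1 member), 103 with the replicate block (3 members, Cbln2, Grp and Sst) and 0 to 7 without 1 library (0 to 1 member). Dexamethasone gave 318 without TMM, 728 with the block (2 members) and 4 to 315 without 1 library (0 to 1 member). In glia DESeq2 called 87 genes for Stress (33 to 174 without 1 library) and 209 for Dexamethasone (311 to 484); in lymphatic endothelium 0 to 1 and 0 to 6 genes were called without 1 library. Detection of Sst beside Nmu turned to -1.56 points with doublets kept and -1.91 at 5 to 20% (-3.33 to 5.26 without 1 library), and of Calcb to -1.98 to 3.35 without 1 library. The Cbln2 share turned to -0.30 points when thinned to 500 UMIs and the Piezo2 share to -2.99 with doublets kept. The difference in the share of sensory-type nuclei ranged from -2.04 to 4.30 points without 1 library. The cause of these changes was not tested, except that leaving out a library leaves fewer samples. Precision is limited by few nuclei and few UMIs: 14 Control Cbln2 UMIs, 1 Nog UMI in each Control library, and a Dexamethasone median of 1061.5 UMIs per neuron.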
